A study of Mus musculus with 18 samples.

Results

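MAP kinase phosphatases and the Sprouty and Spred proteins are inhibitors of MAP kinase signalling, and the genes of both families were followed here in cultured mouse bone marrow macrophages given TGF-β1 or BMP4. The 10 genes were Dusp1, Dusp2, Dusp4, Dusp5, Dusp6, Dusp7, Dusp16, Spry1, Spry2 and Spred1, chosen by name from the 54532 genes of the deposited table because each restrains an ERK, p38 or JNK pathway. Of these, 9 passed a filter on low counts, as did 14684 genes in all, and Spry1 did not.

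The study asked how the loss of Smad1, a signal transducer downstream of BMP receptors, changes the gene expression of macrophages with and without these ligands. Polyadenylated RNA was sequenced from 18 libraries in 6 groups of 3, numbered 1 to 3 in the labels. Every group came from mice 2 to 3 months old that carried Smad1 alleles flanked by loxP sites (Smad1 fl/fl). The knockout-labelled groups (MyS1KO, Smad1 fl/fl + LyzM-Cre) also carried Cre recombinase driven from the lysozyme gene Lyz2, which is active in myeloid cells, and the floxed-labelled groups carried no Cre per the labels. Within each label, 1 group was given TGF-β1 at 10 ng/ml for 4 h, 1 was given BMP4 at 50 ng/ml for 4 h and 1 was left untreated. All groups shared the earlier culture, which was 24 h in 15% serum with 12 ng/ml CSF-1 and interleukin-3 from WEHI-3 conditioned medium, then 48 h in 120 ng/ml CSF-1 and about 16 h without serum. The labels name no separate animals or cultures behind the 3 libraries of a group, so p-values measure the spread between these libraries, which may be technical.

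Levels of Lyz2, the gene that drives Cre, left the genotype labels of all 18 libraries in doubt. The doubt is not limited to the floxed-labelled libraries numbered 1. Lyz2 was at 13449 to 17786 CPM (reads per gene, scaled so that all libraries have equal totals) in the 9 knockout-labelled libraries, at 8118 to 9872 CPM in the 6 floxed-labelled libraries numbered 2 and 3, and at 37.6 to 74.3 CPM in the 3 floxed-labelled libraries numbered 1. Smad1 itself was at 19.5 to 26.8 CPM in knockout-labelled and 22.2 to 31.1 CPM in floxed-labelled libraries, and the labels do not say which exons lie between the loxP sites, so the whole-gene count does not check the genotype. Loss of the protein was documented by western blot, per the submitters. Groups are therefore called by their labels, and results that rest on the floxed-labelled libraries numbered 1 are also given without them, as a fit of 15 libraries. That fit does not check the genotype of the libraries it keeps. The Lyz2 gap between knockout-labelled libraries and floxed-labelled libraries 2 and 3 remains in it. All 7 macrophage markers examined were present (9921 to 28927 CPM summed over the list, which includes Lyz2). The 6 neutrophil markers summed to 48.2 to 124 CPM, and no summed list of dendritic, fibroblast, lymphoid, mast cell, erythroid or platelet markers passed 15.7 CPM in any library, with the platelet marker Gp1bb at 0 counts throughout. Total counts ran from 15153296 to 24639163. Smad7, an inhibitory Smad that TGF-β induces, was at 41.9 to 59.7 CPM under TGF-β1, against 3.81 to 5.66 CPM in untreated cells. Under BMP4 it was at 3.97 to 5.59 CPM, and no gene known to respond to BMP4 was examined as a check of that ligand.

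ERK, p38 and JNK are kinases that become active when both a threonine and a tyrosine of their activation loop are phosphorylated, and the dual-specificity (Dusp) phosphatases switch them off by removing both phosphates. Sprouty and Spred proteins act higher up, between receptor tyrosine kinases and Ras or Raf. In macrophages CSF-1 signals through such a receptor to ERK, and many of these inhibitors are themselves transcribed in answer to ERK activity, which makes them feedback genes.

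In untreated macrophages the genes spanned a wide range of levels, compared per length as the authors' FPKM (the authors' counts scaled by library size and gene length). Over the 6 untreated libraries Spred1 was the highest, with a median of 30.4 FPKM (27.9 to 30.9), and Dusp7 followed with 21.2 FPKM (9.58 to 28.9). Dusp1 and Dusp6 came next with medians of 6.99 FPKM (5.71 to 7.84) and 6.67 FPKM (5.34 to 8.61), and their ranges overlapped almost fully. Dusp16 (1.77), Dusp2 (1.72), Spry2 (1.40), Dusp5 (1.01) and Dusp4 (0.728 FPKM median) formed a lower set in which the ranges of neighbours in this order overlapped. Spry1 had a median of 0 FPKM.

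The stretches before the start sites of 4 genes are printed here, since 3 of these genes carried clear TGF-β1 responses and Dusp1 is the member whose window holds matches to more than 1 of the motifs searched. RefSeq promoter entries of build GRCm38.p6 were found for 9 of the 10 genes, and Dusp4 had none. The 250 bases before each start site were searched on both strands for the Smad-binding sequence CAGAC, the AP-1 site TGANTCA, the cyclic AMP response element TGACGTCA and the CArG box that serum response factor binds. Capitals mark matches.
Dusp1, chr17:26508520-26508722, minus strand: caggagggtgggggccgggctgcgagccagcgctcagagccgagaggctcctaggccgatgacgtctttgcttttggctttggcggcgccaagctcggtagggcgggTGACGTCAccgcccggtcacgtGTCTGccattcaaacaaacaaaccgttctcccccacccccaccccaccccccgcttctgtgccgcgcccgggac
Dusp5, chr19:53528895-53529108, plus strand: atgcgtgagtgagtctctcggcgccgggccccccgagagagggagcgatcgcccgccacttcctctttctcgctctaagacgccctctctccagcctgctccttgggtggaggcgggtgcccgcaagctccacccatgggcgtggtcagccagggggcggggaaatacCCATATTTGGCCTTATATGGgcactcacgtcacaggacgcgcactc
Dusp16, chr6:134792629-134792878, minus strand: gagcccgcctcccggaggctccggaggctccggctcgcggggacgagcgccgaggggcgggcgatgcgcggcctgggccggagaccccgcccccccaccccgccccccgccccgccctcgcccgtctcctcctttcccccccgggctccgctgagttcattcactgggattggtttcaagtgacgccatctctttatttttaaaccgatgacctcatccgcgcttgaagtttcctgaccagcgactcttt
Spred1, chr2:117120821-117121070, plus strand: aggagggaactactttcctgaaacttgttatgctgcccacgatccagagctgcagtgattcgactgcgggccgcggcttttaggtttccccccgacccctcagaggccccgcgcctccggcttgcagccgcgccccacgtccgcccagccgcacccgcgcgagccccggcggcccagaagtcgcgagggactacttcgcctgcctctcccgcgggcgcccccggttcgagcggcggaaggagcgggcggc
Dusp5 held 2 CArG boxes side by side, a motif found in 1.47% of the 32851 RefSeq windows of this length. Dusp1 held 1 cyclic AMP response element (1.55% of windows) and 1 CAGAC match on the other strand (42.2% of windows), and Dusp2 held 1 CAGAC match. AP-1 sites, present in 6.75% of windows, were in none of the 9, and the windows of Dusp6, Dusp7, Dusp16, Spry1, Spry2 and Spred1 held none of the 4 motifs. No matches overlapped. A match is a string of letters and not a measured binding site, and a window without one says nothing about the factor.

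TGF-β1 against untreated cells asks which inhibitors the ligand changed within 4 h. Spred1, Dusp16 and Spry2 fell and Dusp4 and Dusp5 rose, in cells of both labels. In knockout-labelled cells 5 of the 9 tested genes were called, which means an edgeR adjusted p under 0.05, 2 higher and 3 lower, against a background of 34.6% of all genes tested (17.6% higher and 17.1% lower). In floxed-labelled cells it was the same count, 2 higher and 3 lower, against 33% of all genes (17% higher and 16% lower). The median log2 change of the 9 genes was −0.50 in each label, while the median over all genes was 0.00026 in knockout-labelled and 0.0042 in floxed-labelled cells. In each label the members' median is the value of Dusp2, which was not called and whose groups overlapped. The 3 libraries of one group lay wholly to one side of the other for 6 of the 9 genes in knockout-labelled cells, against 44.9% of all genes, and for 5 of 9 in floxed-labelled cells, against 43.9%.

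Spred1, which brings the Ras-inactivating protein neurofibromin to the membrane, held the highest untreated level of the 10 and gave the largest fall among the called members. With TGF-β1 it was at 91.1, 74.9 and 78.7 CPM in knockout-labelled libraries 1 to 3, against 190, 209 and 211 CPM untreated. Floxed-labelled libraries held 82.5, 95.2 and 100 CPM under TGF-β1, against 210, 205 and 206 CPM untreated. Every library with TGF-β1 lay below every untreated one, and the fitted level was 0.401 of untreated in knockout-labelled cells (log2 −1.32, SE 0.07, edgeR adjusted p = 2.42e-11) and 0.448 of untreated in floxed-labelled cells (log2 −1.16, SE 0.07, edgeR adjusted p = 1.23e-10). In bulk RNA, fewer cells that express a gene and less of its RNA per cell cannot be told apart, here and in all results that follow.

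Spry2, a Sprouty protein that checks the receptor-to-Ras step, lay far below Spred1 per length. With TGF-β1 the knockout-labelled libraries held 1.87, 1.69 and 1.81 CPM, against 2.72, 3.17 and 2.26 CPM untreated. Floxed-labelled libraries held 1.62, 2.08 and 1.55 CPM under TGF-β1, against 2.27, 3.44 and 3.46 CPM untreated. The groups did not overlap, by a narrow gap in each label, and the change was log2 −0.60 in knockout-labelled cells (SE 0.21, edgeR adjusted p = 0.0280) and −0.79 in floxed-labelled cells (SE 0.19, edgeR adjusted p = 0.00321). The knockout-labelled call rests on 28 to 52 counts per library and was lost without any 1 of 5 of the 6 libraries, with an edgeR adjusted p of up to 0.137. Spry1, the other Sprouty gene followed, had 0 counts in 11 of the 18 libraries and at most 3 counts in the other 7, which is no more than the floor of 3 counts (0.122 to 0.198 CPM, counting error only), so no change in it was detectable at this depth.

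Dusp16, a phosphatase that acts mainly on JNK, had closely grouped values. Knockout-labelled libraries held 7.22, 7.41 and 7.25 CPM under TGF-β1, against 14.0, 14.0 and 13.8 CPM untreated. In floxed-labelled cells the values were 6.74, 7.72 and 6.37 CPM under TGF-β1, against 15.0, 13.7 and 13.8 CPM untreated. The level was thus 0.524 of untreated in knockout-labelled cells (log2 −0.93, SE 0.09, edgeR adjusted p = 8.34e-08) and 0.490 of untreated in floxed-labelled cells (log2 −1.03, SE 0.09, edgeR adjusted p = 1.26e-08), with no overlap between groups. An antisense gene, Gm36328, overlaps Dusp16 and had 22 counts over all libraries, beside 4017 counts for Dusp16.

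Dusp4 and Dusp5, both inducible phosphatases of the nucleus, were the members that rose. Dusp4, which acts on ERK and JNK, was at 5.01, 5.50 and 4.21 CPM with TGF-β1 in knockout-labelled libraries, against 1.69, 1.89 and 1.89 CPM untreated. The floxed-labelled libraries held 10.8, 8.64 and 7.16 CPM under TGF-β1, against 4.75, 2.12 and 2.50 CPM untreated. All libraries with TGF-β1 were above the untreated ones of their label, by 2.68-fold in knockout-labelled cells (log2 1.42, SE 0.32, edgeR adjusted p = 0.00145) and 2.80-fold in floxed-labelled cells (log2 1.48, SE 0.27, edgeR adjusted p = 0.000249). Floxed-labelled library 1 was the highest of its group in each treatment, and without these 3 libraries the rise was log2 1.77 in floxed-labelled cells (edgeR adjusted p = 1.56e-05).

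Dusp5, which is specific for ERK and is the gene printed above with 2 CArG boxes, held 5.28, 5.17 and 4.10 CPM with TGF-β1 in knockout-labelled libraries, against 3.14, 1.89 and 3.27 CPM untreated. In floxed-labelled libraries it held 4.46, 4.61 and 4.61 CPM under TGF-β1, against 1.93, 1.98 and 3.03 CPM untreated. The groups did not overlap in either label, and the rise was 1.75-fold in knockout-labelled cells (log2 0.81, SE 0.23, edgeR adjusted p = 0.00899) and 1.98-fold in floxed-labelled cells (log2 0.99, SE 0.22, edgeR adjusted p = 0.00165). Without the untreated knockout-labelled library 2, which held 31 counts, the knockout-labelled edgeR adjusted p was 0.0519. In the 15 libraries that leave out floxed-labelled library 1 of each treatment, all 5 floxed-labelled calls stood, at log2 −1.07 for Spred1, −0.97 for Dusp16, −0.93 for Spry2, 1.77 for Dusp4 and 0.88 for Dusp5 (edgeR adjusted p = 0.0313 for Dusp5, the highest of the 5).

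The other inducible nuclear phosphatases did not pass the test. Dusp1, which dephosphorylates p38 and JNK and limits inflammatory cytokines in macrophages, held 22.7, 12.9 and 22.0 CPM with TGF-β1 in knockout-labelled libraries, against 19.0, 15.5 and 18.7 CPM untreated. Floxed-labelled libraries held 23.6, 22.7 and 21.0 CPM under TGF-β1, against 19.1, 18.9 and 21.3 CPM untreated. These groups overlapped, and the 95% interval of the log2 change ran from −0.23 to 0.45 in knockout-labelled and from −0.15 to 0.51 in floxed-labelled cells. For Dusp2, a phosphatase of blood cells, the change was log2 −0.50 in both labels, with overlapping groups and intervals from −1.05 to 0.05 in knockout-labelled and −1.02 to 0.03 in floxed-labelled cells. Leaving out 1 library brought 2 of these under the threshold. Without TGF-β1 library 2 of its label, Dusp1 was at log2 0.34 in knockout-labelled cells (edgeR adjusted p = 0.0479) and Dusp2 at log2 −0.80 in floxed-labelled cells (edgeR adjusted p = 0.0312).

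Dusp6 and Dusp7, the ERK phosphatases of the cytoplasm, were not called either, and they differed in how much their libraries varied. Dusp6 was at 15.3, 16.6 and 13.9 CPM with TGF-β1 in knockout-labelled libraries, against 16.8, 24.3 and 19.0 CPM untreated (log2 −0.39, SE 0.16, edgeR adjusted p = 0.0721). In floxed-labelled libraries its level was 17.6, 23 and 24.9 CPM under TGF-β1, against 21.7, 20.3 and 27.1 CPM untreated (log2 −0.07, SE 0.15, edgeR adjusted p = 0.786). The knockout-labelled groups just failed to overlap and the floxed-labelled ones overlapped, with a change of log2 0.01 in floxed-labelled cells in the 15 libraries. With library number as a block within each label, the knockout-labelled value was log2 −0.39 and passed (edgeR adjusted p = 0.0117), as it did with DESeq2 (adjusted p = 0.0463).

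Dusp7 varied more with library number than with treatment. Knockout-labelled libraries 1 to 3 held 45.0, 23.6 and 55.9 CPM under TGF-β1, 68.6, 34.4 and 93.3 CPM under BMP4 and 89.5, 44.3 and 97.8 CPM untreated. Its floxed-labelled values were 22.2, 40.8 and 37.5 CPM under TGF-β1, 29.0, 56.9 and 58.5 CPM under BMP4 and 32.3, 76.4 and 66.5 CPM untreated. Library 2 was lowest in all 3 knockout-labelled groups and library 1 in all 3 floxed-labelled groups.

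The groups overlapped, and the change with TGF-β1 was log2 −0.90 in knockout-labelled cells (SE 0.40, edgeR adjusted p = 0.0930) and −0.79 in floxed-labelled cells (SE 0.40, edgeR adjusted p = 0.146). Between libraries of the same label and number, Dusp7 with TGF-β1 was 0.503 to 0.687 of untreated, lower in 6 of 6 such pairs. Same-numbered libraries of a label deviated together across all genes, and with library number as a block within each label the SE was 0.07 and Dusp7 was called lower in both labels (log2 −0.90, edgeR adjusted p = 1.51e-11 in knockout-labelled; log2 −0.78, edgeR adjusted p = 2.41e-10 in floxed-labelled). Dusp7 is therefore called with TGF-β1 only in the blocked fit and in part of the alternatives given in the closing section.

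**Figure D1:**
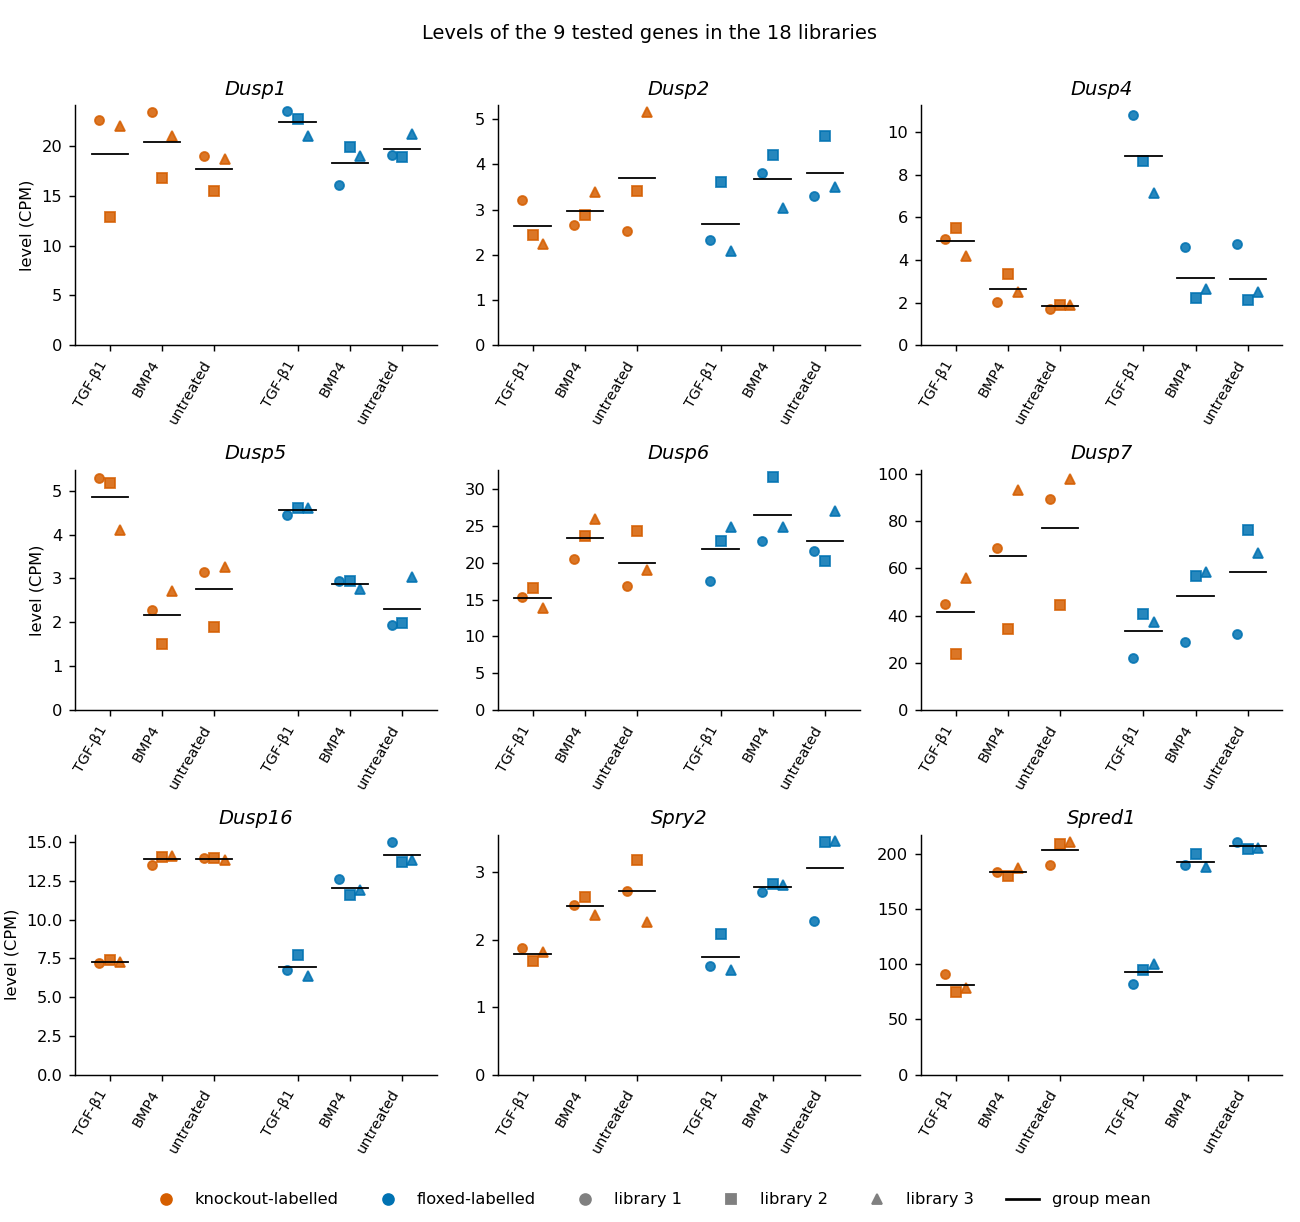
Level of each tested gene in CPM (linear axis from 0) in the 18 libraries, by treatment and genotype label; symbols give the library number and black lines the mean of 3 libraries. Spred1 and Dusp16 lie in separate bands with TGF-β1 and without it, while Dusp7 is lowest in library 2 of every knockout-labelled group and library 1 of every floxed-labelled group.

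BMP4 against untreated cells asks the same of the ligand whose receptors act through Smad1. None of the 9 genes was called by edgeR in either label, against 0.572% of all genes in knockout-labelled cells (0.129% higher and 0.443% lower) and 0% in floxed-labelled cells. The groups did not overlap for 2 of 9 genes in knockout-labelled cells (15.7% of all genes) and 2 of 9 in floxed-labelled cells (13.2%). At an unadjusted edgeR p under 0.05 the count was 0 of 9 genes in knockout-labelled cells, against 12.2% of all genes. In floxed-labelled cells it was 1 of 9 (Dusp16), against 7.51% of all genes. DESeq2 called 0 of the 9 genes in each label. Over all genes in floxed-labelled cells, 1103 had an unadjusted edgeR p under 0.05 and DESeq2 called 14.

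Intervals limit how large a BMP4 change these data allow, in libraries where the action of the ligand was not checked with a gene known to respond to it. Spred1 was at 184, 180 and 188 CPM with BMP4 in knockout-labelled libraries and 190, 200 and 188 CPM in floxed-labelled libraries, below all untreated libraries of the same label, with log2 changes of −0.14 (95% interval −0.29 to 0.00) and −0.10 (−0.25 to 0.04). Dusp16 was at 13.5, 14.1 and 14.1 CPM with BMP4 in knockout-labelled libraries, overlapping the untreated ones (log2 0.00, interval −0.18 to 0.17), and at 12.6, 11.6 and 11.9 CPM in floxed-labelled libraries (log2 −0.24, interval −0.41 to −0.06, edgeR adjusted p = 0.537). Dusp4 had the largest estimate, log2 0.52 in knockout-labelled cells (interval −0.17 to 1.22, edgeR adjusted p = 0.566). Its libraries there held 2.04, 3.35 and 2.51 CPM with BMP4, above the untreated 1.69, 1.89 and 1.89 CPM. In floxed-labelled cells Dusp4 was at log2 0.01 (−0.61 to 0.62). Dusp5 was at log2 −0.35 (−0.86 to 0.15) in knockout-labelled and 0.33 (−0.16 to 0.81) in floxed-labelled cells. The widest interval was that of Dusp7, from −1.05 to 0.57 in knockout-labelled and −1.10 to 0.54 in floxed-labelled cells. With library number as a block, Dusp7 was called lower with BMP4 in knockout-labelled cells (log2 −0.26, edgeR adjusted p = 0.0241) and not in floxed-labelled cells (log2 −0.26, edgeR adjusted p = 0.0727).

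**Figure D2:**
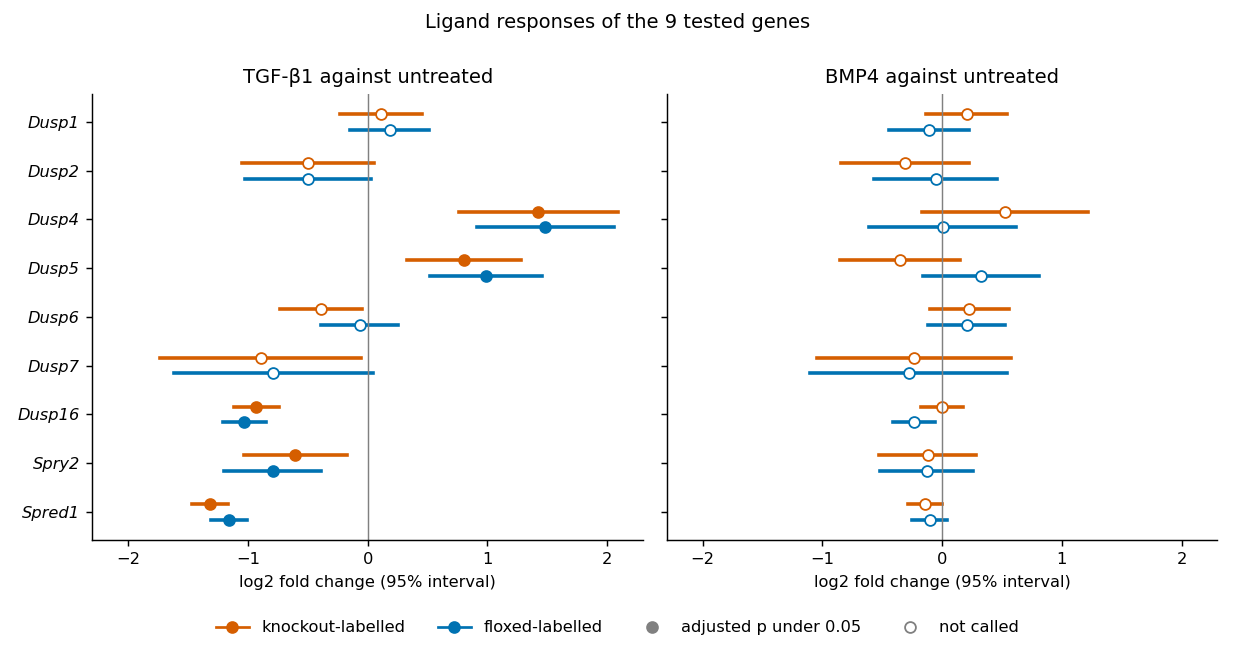
Log2 fold change of each tested gene with its 95% interval, TGF-β1 against untreated on the left and BMP4 against untreated on the right, for both genotype labels; filled points passed an edgeR adjusted p under 0.05. With TGF-β1, 5 genes are filled in each label, from −1.32 for Spred1 to 1.48 for Dusp4, and with BMP4 none is filled.

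TGF-β1 against BMP4 compares the ligands at their single doses, 10 and 50 ng/ml. In knockout-labelled cells 5 of 9 genes were called (background 32.6%, 16.4% higher and 16.2% lower): Dusp4 (log2 0.90) and Dusp5 (log2 1.16) were higher with TGF-β1, and Spred1 (log2 −1.17), Dusp16 (log2 −0.93) and Dusp6 (log2 −0.62) lower. In floxed-labelled cells 5 of 9 were called (background 34.8%, 17.9% higher and 16.9% lower): Dusp4 (log2 1.48) and Dusp5 (log2 0.66) higher, and Spred1 (log2 −1.05), Dusp16 (log2 −0.79) and Spry2 (log2 −0.66) lower. The groups did not overlap for 6 of 9 genes in each label, against 43% of all genes in knockout-labelled and 47.8% in floxed-labelled cells. These comparisons share the TGF-β1 libraries with those above. Dusp6 was at 15.3, 16.6 and 13.9 CPM under TGF-β1, against 20.5, 23.7 and 26.0 CPM with BMP4 in knockout-labelled libraries, with no overlap (SE 0.16, edgeR adjusted p = 0.00529), whereas the floxed-labelled groups overlapped (log2 −0.27, interval −0.59 to 0.05). Spry2 in knockout-labelled cells missed the threshold (log2 −0.48, edgeR adjusted p = 0.0780). The Dusp4 call in knockout-labelled cells was lost without any 1 of 4 of its 6 libraries (edgeR adjusted p up to 0.102). The Dusp5 call in floxed-labelled cells was lost without any 1 of 5 of its 6 (up to 0.0747), and also in the 15 libraries (edgeR adjusted p = 0.0854). Without floxed-labelled TGF-β1 library 3 the floxed-labelled count was 3 of 9 genes, and the Spry2 call there was lost (edgeR adjusted p = 0.0545). The block within label called Dusp7 lower in knockout-labelled (log2 −0.64, edgeR adjusted p = 1.16e-08) and floxed-labelled cells (log2 −0.52, edgeR adjusted p = 6.23e-07). In floxed-labelled cells it also called Dusp1 higher (log2 0.29, edgeR adjusted p = 0.0145) and Dusp6 lower (log2 −0.28, edgeR adjusted p = 0.0426), which made 8 of 9. The 34.8% above is from the fit without the block. No share of all genes is given for the blocked fit, so the 8 of 9 has no background beside it.

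Knockout-labelled against floxed-labelled cells asks whether the genotype label goes with the level of the inhibitors. No member was called by edgeR or DESeq2 untreated, with TGF-β1 or with BMP4, against 2.39% of all genes called by edgeR untreated (1.29% higher and 1.1% lower), 0.388% with TGF-β1 (0.136% higher and 0.252% lower) and 0.0272% with BMP4 (0.00681% higher and 0.0204% lower). The labels did not overlap for 1 of 9 genes untreated (20.5% of all genes), 2 of 9 with TGF-β1 (19.2%) and 4 of 9 with BMP4 (13.2%). At an unadjusted edgeR p under 0.05 there was 1 member untreated (Dusp4), 3 with TGF-β1 (Dusp4, Dusp6 and Spred1) and 1 with BMP4 (Dusp16), of 9 each time, where 17.5% of all genes untreated, 12.5% with TGF-β1 and 7.91% with BMP4 had such a p.

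Untreated and with TGF-β1, Dusp4 showed the largest gaps between labels of the 9 genes. With TGF-β1 it was at 5.01, 5.50 and 4.21 CPM in knockout-labelled libraries, against 10.8, 8.64 and 7.16 CPM in floxed-labelled ones (log2 −0.85, interval −1.41 to −0.29, edgeR adjusted p = 0.170). Untreated, it was at 1.69, 1.89 and 1.89 CPM in knockout-labelled libraries, against 4.75, 2.12 and 2.50 CPM in floxed-labelled ones (log2 −0.79, interval −1.47 to −0.11, edgeR adjusted p = 0.202). The groups did not overlap in either treatment, and the top value was that of floxed-labelled library 1 each time. In the 15 libraries without the number 1 floxed-labelled ones, the gap was log2 −0.69 with TGF-β1 (edgeR adjusted p = 0.196) and −0.35 untreated (edgeR adjusted p = 0.528). Dusp6 with TGF-β1 was at log2 −0.52 (interval −0.86 to −0.19, edgeR adjusted p = 0.155) and Spred1 at log2 −0.19 (interval −0.34 to −0.04, edgeR adjusted p = 0.272). No member was called between labels, or for BMP4 against untreated, in the 15 libraries either.

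The test of whether the ligand responses differ between labels called none of the 9 genes by edgeR, adjusted or at an unadjusted p under 0.05, or by DESeq2, for TGF-β1 or for BMP4. Over all genes, 0.00681% (1 gene) were called for TGF-β1 and 0% for BMP4. At an unadjusted edgeR p under 0.05 the share of all genes was 3.36% for TGF-β1 and 5.71% (839 genes) for BMP4. For BMP4, DESeq2 called 15 of all genes. For the TGF-β1 response, the difference was log2 −0.16 for Spred1 (interval −0.37 to 0.05), 0.10 for Dusp16 (−0.16 to 0.36), 0.19 for Spry2 (−0.40 to 0.78), −0.06 for Dusp4 (−0.96 to 0.85) and −0.18 for Dusp5 (−0.85 to 0.49). The intervals of Spred1 and Dusp16 are the narrow ones, those of Spry2 and Dusp5 allow differences close to the size of the responses, and that of Dusp4 is the widest of the 5.

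**Figure D3:**
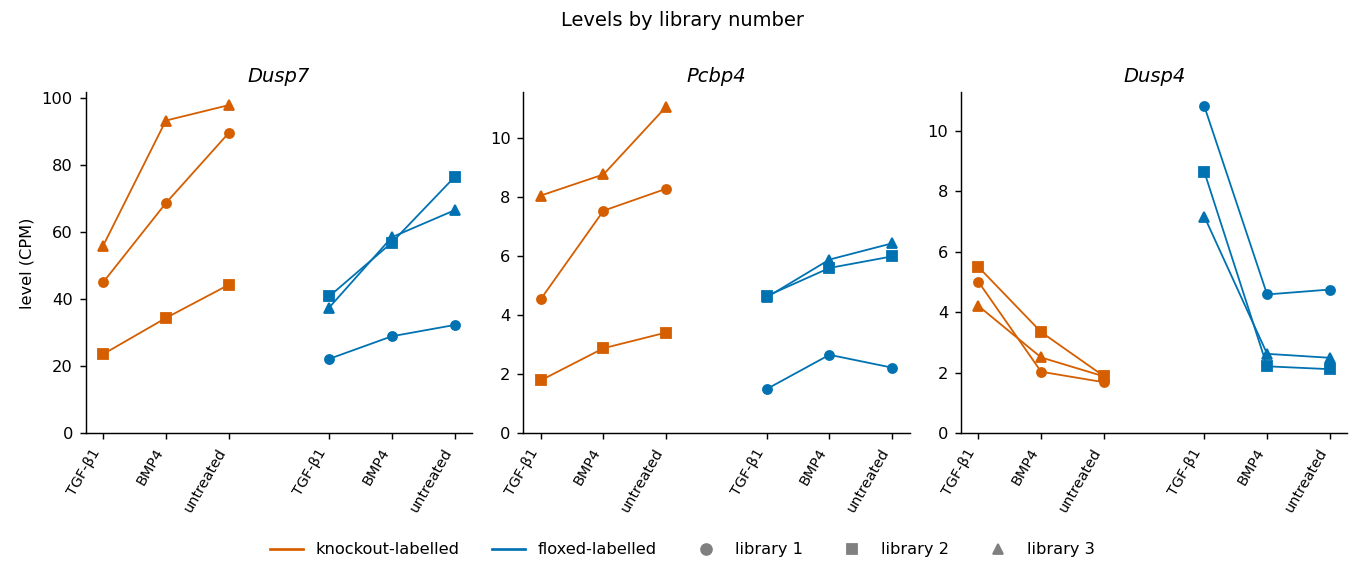
Levels in CPM (linear axis from 0) of Dusp7, its chromosome 9 neighbour Pcbp4 and Dusp4; each line joins same-numbered libraries of a label across the 3 treatments. The lines of Dusp7 and Pcbp4 are low for knockout-labelled library 2 and floxed-labelled library 1, and the Dusp4 line of floxed-labelled library 1 is the highest.

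The genes whose log2 CPM ran most like that of each member over the 18 libraries were listed by Pearson's r, as a description, since these libraries share treatments and depth. Spred1 was followed most closely by Tubb2a, a tubulin gene (r = 0.992), and Nxpe5 (r = 0.991). Dusp16 was nearest to Vav3, a guanine nucleotide exchange factor (r = 0.983), and Gng2, a G protein subunit (r = 0.981). Spry2 was nearest to Araf, a Raf kinase (r = 0.953), and Jund, an AP-1 subunit (r = 0.934). Dusp4 ran with Gcsh (r = 0.937) and Cyp2s1 (r = 0.935), and Dusp5 with Spata5 (r = 0.921) and Bach2os (r = 0.911). Dusp6 with Tfb1m (r = 0.888) and Ftl1 (r = 0.843), Dusp1 with Tmx1 (r = 0.851) and March1 (r = 0.799), and Dusp2 with Kat5 (r = 0.781) had looser partners. Among the members themselves, Dusp16 and Spred1 were closest (r = 0.96), Spry2 and Spred1 had r = 0.85, and Dusp5 ran against Dusp16 (r = −0.85).

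For Dusp7 (chromosome 9, 106368632 to 106375724, build mm10) the nearest patterns were those of 2 genes on the same stretch of the chromosome, within 200 kb and with other genes between, Pcbp4 (r = 0.949; 106453291 to 106464012) and Parp3 (r = 0.937; 106470322 to 106476949). The neighbourhood was examined after these values were seen. Of 13 other tested genes within 200 kb of Dusp7, 9 had an r over 0.5 with Dusp7 in their deviations from the group means, led by Rpl29 (r = 0.99), Pcbp4 (r = 0.97) and Parp3 (r = 0.96), whereas 1767 of 14683 other genes did so genome-wide. Pcbp4 was at 4.54, 1.80 and 8.05 CPM under TGF-β1, against 8.28, 3.42 and 11.1 CPM untreated in knockout-labelled libraries, and in floxed-labelled ones at 1.5, 4.65 and 4.61 CPM under TGF-β1, against 2.23, 5.99 and 6.43 CPM untreated. It was thus low in the same libraries as Dusp7, as the plot of levels by library number shows. What moves this stretch of chromosome 9 with the library number was not tested.

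Called genes of the rest of the pathway lay in both directions with TGF-β1. Their counts stand against the background of all genes given above, 34.6% called in knockout-labelled cells (17.6% higher and 17.1% lower) and 33% in floxed-labelled cells (17% higher and 16% lower), and no list was tested against it. Among 13 tested of 15 other MAP kinase and dual-specificity phosphatases, 1 was called higher and 4 lower in knockout-labelled cells, and 2 higher and 4 lower in floxed-labelled cells (medians of log2 −0.12 and −0.13). In the 15 libraries the floxed-labelled count of these phosphatases was 1 higher and 2 lower. Dusp9, an ERK phosphatase of the cytoplasm, was at 5.21 ± 1.83 CPM under TGF-β1, against 0.737 ± 0.0518 CPM untreated in knockout-labelled cells, and reached 5.84 ± 2.44 CPM under TGF-β1, against 1.46 ± 0.6 CPM untreated in floxed-labelled cells (SD, n = 3 each). This was a rise of log2 2.81 in knockout-labelled cells (SE 0.44) and 1.96 in floxed-labelled cells (SE 0.37). Dusp22, a phosphatase linked to JNK signalling, fell by 1.01 on the log2 scale in knockout-labelled cells and by 0.87 in floxed-labelled cells (SE 0.09 each), and Dusp23 by 0.83 (SE 0.17) and 1.03 (SE 0.17). Dusp8, which acts on JNK and p38, changed by log2 −2.04 and −1.94, at means under 1 CPM in every group. Ptpn7, a leukocyte phosphatase of ERK, changed by log2 −0.15 and −0.14, and Dusp28 was called higher in floxed-labelled cells (log2 0.58).

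Among the other Sprouty and Spred genes, 3 of 4 were tested and 1 was called higher in each label. Spred2, the close relative of Spred1, was at 20.8 ± 2.04 CPM under TGF-β1, against 8.26 ± 0.852 CPM untreated in knockout-labelled cells, and reached 21.5 ± 2.31 CPM under TGF-β1, against 8.55 ± 0.920 CPM untreated in floxed-labelled cells. Its rise was log2 1.33 in each label (SE 0.16, edgeR adjusted p of 2.12e-06 in knockout-labelled and 1.36e-06 in floxed-labelled cells), beside the fall of Spred1. The median of the 3 genes was log2 −0.39 and −0.34. Spry4 failed the filter with at most 1 count in a library.

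The kinases and adaptors that carry the signal from receptors through Ras to ERK, all 22 of which were tested, gave 10 higher and 2 lower in knockout-labelled cells and 9 higher and 3 lower in floxed-labelled cells, at medians of log2 0.14 and 0.12. Nf1, which encodes the neurofibromin that Spred1 recruits, rose by log2 0.52 and 0.57, the adaptor Shc1 by 0.45 and 0.52, and the ERK kinase Map2k1 by 0.43 and 0.42. The scaffold Ksr1 fell by 0.87 and 0.76 on the log2 scale, and Araf by 0.30 and 0.36. Between labels, the only called gene of these lists was the kinase Braf with TGF-β1, at 70.5 CPM in knockout-labelled and 58.1 CPM in floxed-labelled cells (log2 0.28, edgeR adjusted p = 0.0421), against 0.388% of all genes. The Braf call was lost in the 15 libraries (log2 0.29, edgeR adjusted p = 0.109), with only the groups compared (edgeR adjusted p = 0.0850) and without any 1 of the 6 libraries (log2 0.23 to 0.30, edgeR adjusted p = 0.0528 to 0.170).

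The list of transcriptional targets of the ERK pathway holds genes that ERK activity induces and also Bcl2l11, the gene of the cell death protein Bim, which ERK activity is known to lower. Of 17 tested of 20, 5 were called higher and 4 lower in knockout-labelled cells and 7 higher and 4 lower in floxed-labelled cells (medians of log2 0.18 and 0.21). Fos rose to 351 ± 36.2 CPM under TGF-β1, against 119 ± 10.0 CPM untreated in knockout-labelled cells (log2 1.57), and by log2 1.51 in floxed-labelled cells. Myc rose by log2 0.88 and 1.13, Plaur by 1.16 and 1.37, and Bcl2l11 by 0.64 and 0.75. The Ets factor Etv5 fell to 5.96 ± 0.739 CPM under TGF-β1, against 15.2 ± 2.12 CPM untreated in knockout-labelled cells (log2 −1.36), and by log2 −1.49 in floxed-labelled cells. Etv1 changed by log2 −1.21 and −0.96, Ier3 by −1.50 and −1.25, and Epha4 by −3.41 and −2.39, the last at means of 1.29 CPM or less.

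On the p38 and JNK side, 24 of 25 genes were tested, with 11 higher and 6 lower in knockout-labelled cells and 10 higher and 7 lower in floxed-labelled cells (medians of log2 0.15 and 0.10). Gadd45a and Gadd45g, activators of the kinase above p38 and JNK, rose by log2 1.85 and 2.06 in knockout-labelled cells and by 2.08 and 2.34 in floxed-labelled cells. Map2k3, a kinase that phosphorylates p38, rose by log2 1.14 and 1.17, and Map3k5 by 0.84 and 0.74. Mapk14, which encodes the main p38 kinase, fell to 192 ± 11.9 CPM under TGF-β1, against 356 ± 22.4 CPM untreated in knockout-labelled cells (log2 −0.89), and by log2 −0.84 in floxed-labelled cells. Its target Mapkapk2 changed by log2 −1.34 and −1.25, Map3k1 by −0.72 and −0.61, and Map3k8 by −0.72 and −0.82. With BMP4, no gene of these 5 lists was called in either label.

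**Figure D4:**
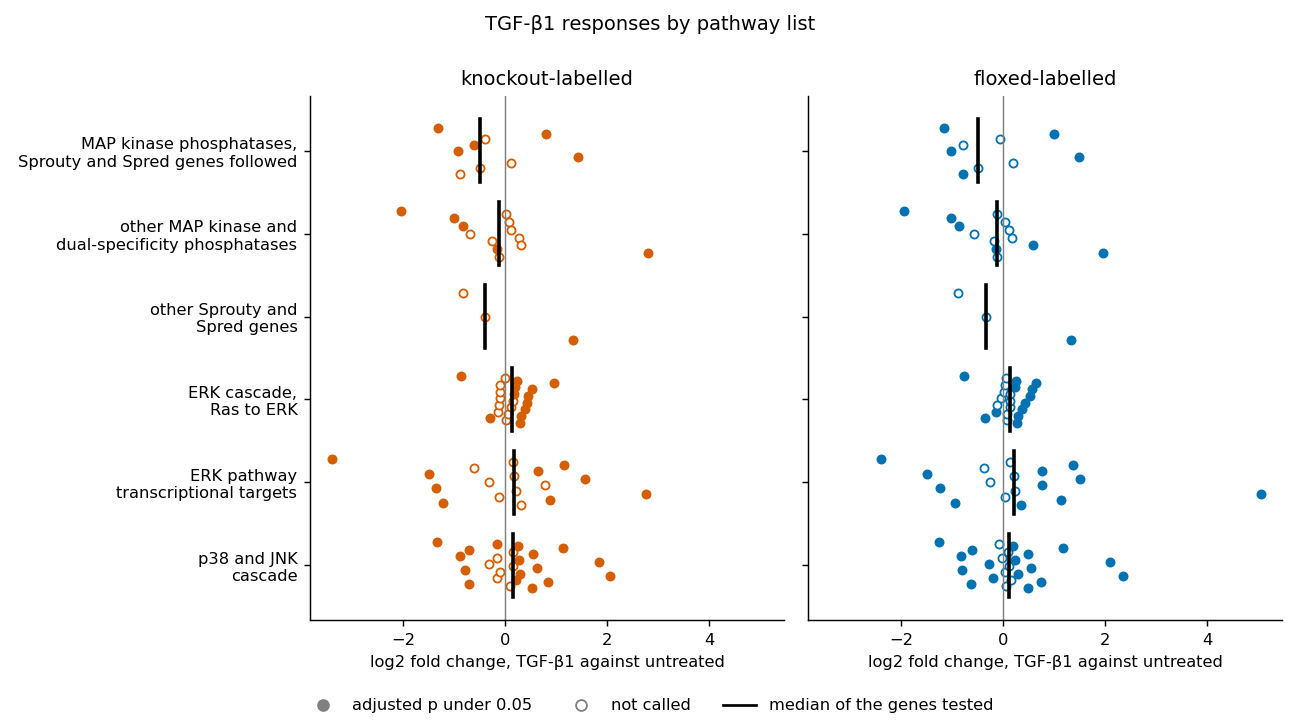
Log2 fold change of every tested gene of the 10 members and of 5 lists of related genes, TGF-β1 against untreated, knockout-labelled on the left and floxed-labelled on the right; filled points passed an edgeR adjusted p under 0.05 and black bars are medians. The members have a median of −0.50 in each label, and each list other than the Sprouty and Spred genes holds called genes on both sides of 0.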

How the data were processed

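Polyadenylated RNA of 18 libraries was read as pairs of 150 bp. Per the submitters' processing notes, the authors used TopHat2 2.0.9, HTSeq 0.6.1 and Cufflinks 2.1.1 with builds mm10 and GRCm38.p6, and neither annotation release nor strand setting is given in the sources used here. The deposited counts per gene were used unchanged, and the FPKM are the authors' values. Gene length in the deposited table set the FPKM check, in which 100% of values equalled scaled count per length to within 1e-06. A further 78 columns of per-sample values were not used.

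Total counts were 15153296 to 24639163 per library. No pair within a group was close enough to be 1 library deposited again (chi-square of 3.451 to 25.7 on each degree of freedom). Counts were fitted in R 4.3.3 with edgeR 4.0.16 (TMM factors 0.978 to 1.02, filterByExpr, 14684 genes, 1 mean per group over 18 libraries, quasi-likelihood F test, two-sided, 12 residual degrees of freedom plus 6.41 from the prior, biological coefficient of variation 8.86%). Adjusted p is Benjamini-Hochberg over all genes tested, a gene was called under 0.05, and 11 comparisons were made. CPM use the TMM factors except in floors.

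Members, related lists and markers were chosen with earlier results of these data known. The text names the 10 members and, of each related list, up to 4 called genes per direction by adjusted p, or the most abundant where none was called. It also names, for each tested member, the 2 genes of highest r in log2 CPM (prior count 2, mean of at least 1 CPM), and Smad1, Smad7 and Lyz2. Not every gene the rule takes is reported.

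Same-numbered libraries of a label deviated together (18 of 18 pairs had r over 0.1, from 0.11 to 0.326). Of pairs with other numbers within a label 0 of 36 did, and of same-numbered pairs across labels 0 of 27. Of pairs that differed in both label and number 3 of 54 did (r from −0.162 to 0.127). Shared numbers thus went with shared deviations within a label and not across labels, where a few pairs of unlike number also deviated together. Alternatives were median-of-ratios (RLE) and total count scaling, no low-count filter, a mean of at least 1 CPM, DESeq2 1.42.0, only the groups compared, a replicate block within label or over all groups, 15 libraries, and each library left out. The model script was tested on simulated counts. Promoter sequences are RefSeq's, build GRCm38.p6.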

Additional observations from a re-analysis of the deposited data

How the results depend on the processing

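The calls of Spred1, Dusp16 and Dusp4 with TGF-β1 against untreated cells, in both labels, stood under every alternative run. So did Spry2 and Dusp5 in floxed-labelled cells. Dusp7 with TGF-β1 was called lower in knockout-labelled cells with no low-count filter (log2 −0.87), with only the groups compared (log2 −0.90) or without untreated replicate 2, and in floxed-labelled cells with no low-count filter (log2 −0.79). With no filter its SE was 0.075 in each label, against 0.40 in the main fit, so these calls came with a smaller SE and not a larger change. For the 37 member results that at least 1 setting called, 495 values stayed on the same side of the threshold, 31 passed it newly, 20 lost it and 3 changed sign. Spry2 in knockout-labelled cells lost its call with DESeq2 (adjusted p = 0.0595), with only the groups compared (edgeR adjusted p = 0.0618) and with no low-count filter (edgeR adjusted p = 0.137). The sign changes among these 37 were Dusp1 with TGF-β1 in knockout-labelled cells without TGF-β1 replicate 1 (log2 −0.0098) or 3 (log2 −0.0079; −0.0098 to 0.34 over the 6 libraries left out), and Dusp7 with BMP4 in knockout-labelled cells without BMP4 replicate 2 (log2 0.078; −0.57 to 0.078 over the 6). Of the other 62 member results, called by no setting, 21 changed sign under at least 1 setting (74 of 1017 values), among them Dusp4 between labels with BMP4 in the 15 libraries (log2 0.11, against −0.27 in all 18). Scaling moved the median of all genes by at most 0.033 on the log2 scale.

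With the replicate block within label, 1 member was called for BMP4 in knockout-labelled cells and 8 for TGF-β1 against BMP4 in floxed-labelled cells (5 without the block). Of all 14684 genes tested, the block called 472 for BMP4 in knockout-labelled cells. Its count over all genes for TGF-β1 against BMP4 is not given here. The blocked fit changed no member call beyond those given above, and it cannot be made between labels. With no low-count filter the members called were 8 for TGF-β1 against BMP4 in floxed-labelled cells and, between labels, 2 untreated, 3 with TGF-β1 and 1 with BMP4. Of the 29506 genes tested in that fit, 817 were called between labels untreated, 394 with TGF-β1 and 287 with BMP4. Its count over all genes for TGF-β1 against BMP4 is not given here. Members called for TGF-β1 against BMP4 in floxed-labelled cells ran from 3 to 5 when libraries were left out 1 at a time.

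Counts over all genes depended on the setting outside the TGF-β1 comparisons. For BMP4 in knockout-labelled cells they were 240 with no filter, 181 with DESeq2, 2 with only the groups compared, 472 with the replicate block within label, 43 in the 15 libraries and 4 to 112 with libraries left out, against 84. For BMP4 in floxed-labelled cells they were 69 with no filter, 14 with DESeq2, 53 with the block, 1 in the 15 libraries and 0 to 1 with libraries left out, against 0. Between labels untreated they were 817 with no filter, 539 with DESeq2, 29 with only the groups compared, 39 in the 15 libraries and 27 to 613 with libraries left out, against 351. Between labels with TGF-β1 they were 30 with RLE, 394 with no filter, 189 with DESeq2, 19 with only the groups compared, 97 with the replicate block over all groups, 2 in the 15 libraries and 0 to 16 with libraries left out, against 57. Between labels with BMP4 they were 2 with total count scaling, 287 with no filter, 34 with DESeq2, 0 with only the groups compared, 10 with the block over all groups and 1 to 5 with libraries left out, against 4. The difference of the TGF-β1 response gave 8 genes with no filter and 0 with total count scaling, only the groups compared, the replicate block over all groups or the 15 libraries, against 1. That of the BMP4 response gave 48 with no filter, 15 with DESeq2 and 7 with the block within label, against 0. The causes of these changes were not tested. Depth limits Spry1, Spry2, Dusp2, Dusp4 and Dusp5 most, at 111 counts or fewer per untreated library.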
